A study of Mus musculus with 21 samples.

Results

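Maturation of the sciatic nerve without Pmp22 was followed from postnatal day 4 (P4) to postnatal day 60 (P60) in 5 of the 21 arrays of a study of mouse nerves with altered Pmp22. The 5 arrays were those titled as Pmp22 null, 3 at P4 (P4_KO_1, P4_KO_2 and P4_KO_3) and 2 at P60 (P60_KO_1 and P60_KO_2). Per the labels, the null mice were homozygous for the Pmp22 null allele, and the sciatic nerves of between 4 and 7 mice went into each pooled sample. Wild type mice (WT) of mixed background, 3 arrays at each age, served to set the null change beside the change with age in nerve that has the gene, and whether the null mice shared that background is not given in the sources used here. A replicate was therefore a pool, and the spread behind each p-value is that between pools and their arrays, which may be technical, not that between single mice. The rest of the 21 arrays, of Pmp22 transgenic and Trembler nerve at P4 and P60, entered the same fit and so add to that spread. Of 12422 probe sets outside the control class, 10994 passed a filter on dim signal and were tested. Values per array are the expression index of the authors. Changes are on the log2 scale after raising values to a floor of 54.7, so a change that starts or ends at the floor is a lower limit of its size. Arrays set to the floor show no spread among themselves, so an SE or p-value that rests on them can be too small.

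PMP22 is a small tetraspan membrane protein of compact myelin, made in large amounts by Schwann cells, the glia that wrap peripheral axons. In the first days after birth Schwann cells leave the cell cycle, sort axons and begin to lay down myelin, which draws heavily on new cholesterol and lipid, while the surrounding fibroblasts deposit collagen. In the adult nerve the myelin is largely complete and is maintained, and mice without PMP22 are known for abnormally folded and thickened early myelin followed by demyelination.

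The targeted gene was read first. The brighter Pmp22 probe set read 4839, 5424 and 5129 on the P4 null arrays and 5679.8 and 4797 on P60_KO_1 and P60_KO_2, against 6839.9, 7682 and 7093 on the P4 WT arrays and 7162, 6732 and 6791 on the P60 WT arrays. All null arrays lay below all WT arrays at this probe set, but only by a small margin. The dimmer Pmp22 probe set read 38, 40.2 and 38.6 on the P4 null arrays and 47.4 and 71.4 on the P60 null arrays, again below every WT array, which ran from 89.6 to 145. Between the ages, the null change was 0.03 ± 0.12 (SE) at the brighter probe set and 0.19 ± 0.23 at the dimmer one, and neither passed (limma, Benjamini-Hochberg adjusted p = 0.914 and 0.573). Where these probes lie relative to the disrupted part of the gene is not given in the sources used here, so their signal does not check the null allele, and the groups are those of the labels. Schwann cell identity was plain on all 5 arrays: Mbp, a major myelin protein, read between 3563 and 5089, Sox10, the transcription factor of Schwann cells, between 871 and 1828, and S100b, a calcium-binding protein of Schwann cells, between 365 and 2592. Sox10 was singled out after its values were seen.

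The 2 P60 null arrays differed strongly and are given one by one throughout. Between them, 920 of 10994 probe sets (8.37%) differed beyond 2-fold, 680 of these (6.19%) lower and 240 (2.18%) higher on P60_KO_2, and Pearson's r was 0.935 across these probe sets (genes, not replicates). The 3 pairs of P4 null arrays differed beyond 2-fold at 58, 125 and 157 probe sets. Pairs of WT arrays of 1 age differed at 73 to 494. Counts as large were seen in Trembler nerve, at 1029 between P4_TR_2 and P4_TR_3 and at 912 between the P60 arrays. The arrays of each of these Trembler pairs were scanned on different days. P60_KO_1 and P60_KO_2 were scanned on the same day, which they shared with 1 array of another group, while P4_KO_1 and P4_KO_2 shared another day and P4_KO_3 was scanned on yet another. No scan day held null arrays of both ages, so no change with age could be read within a day, and the part of scan day was fitted only through the other groups of the series.

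Of the 10994 probe sets, 3179 (28.9%) changed between P4 and P60 in null nerve (limma, Benjamini-Hochberg adjusted p below 0.05), 1307 (11.9%) upwards and 1872 (17%) downwards. In WT nerve the same test called 1638 probe sets (14.9%), 1155 (10.5%) upwards and 483 (4.39%) downwards. The null excess of falls shrank to 1643 upwards against 1754 downwards after median scaling and to 1636 against 1710 after quantile normalization. The median change over all tested probe sets was near 0 in both, at -0.01 in null and 0.01 in WT nerve. P60_KO_2 weighed heavily in the null count: 1274 probe sets were called without it and 3247 without P60_KO_1. A total of 1023 probe sets were called with each of the 5 arrays left out in turn. When scan day entered the fit as a fixed block, 1212 were called, 645 upwards and 567 downwards, where rises were the more numerous. Counted by gene, with the probe set of highest mean signal for each of 7703 genes, 863 (11.2%) rose and 1397 (18.1%) fell in null nerve, and these shares are the background for every gene list that follows. The same shares in WT nerve were 11.2% and 4.52%. The P60 null arrays lay wholly above or wholly below the P4 null arrays at 55.3% of probe sets, so a lack of overlap is common by itself. In whole nerve, fewer cells of a type and less RNA per cell cannot be told apart.

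**Figure D1:**
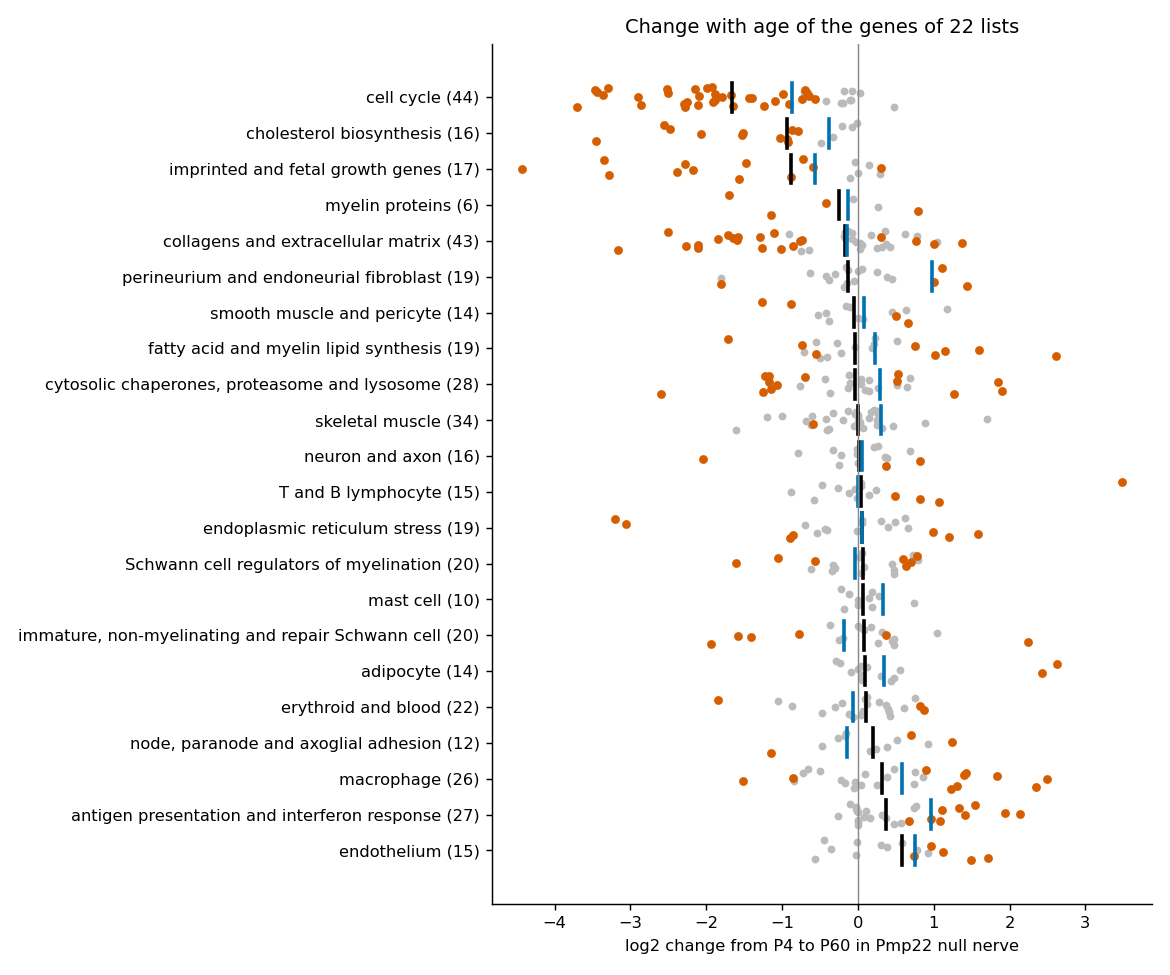
Log2 change from P4 to P60 in Pmp22 null nerve for each measured gene of 22 gene lists, with the number of measured genes in brackets. Orange points passed limma's test at a Benjamini-Hochberg adjusted p below 0.05, grey points did not, the black bar is the list's median in null nerve and the blue bar its median in WT nerve. The cell cycle, cholesterol and imprinted gene lists lie at the negative end, with null medians of -1.66, -0.93 and -0.88, and their black bars lie further from 0 than the blue ones.

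Among the gene lists, that of cell division held the most falls. Of 48 cell cycle genes on the list, 44 were measured, 34 (77.3%) fell and 0 rose in null nerve, with a median change of -1.66. In WT nerve 25 fell and 1 rose, with a median of -0.87. The null arrays stood above the WT arrays in this list already at P4. The summed index of the 44 genes ran from 31700 to 35320 on the P4 null arrays and from 21500 to 26470 on the P4 WT arrays. At P60 it was 16600 on P60_KO_1 and 13040 on P60_KO_2, beside 15320 to 16790 on the P60 WT arrays. The null count of falls was 31 without P60_KO_1, 29 without P60_KO_2 and 18 under the scan day block. On P60_KO_1 the list's median lay 1.28 below the P4 null mean on the log2 scale, and on P60_KO_2 1.69 below it. Cdk1, the kinase that drives entry into mitosis, read 1133, 1124 and 1039 on the P4 null arrays, 129 on P60_KO_1 and 37.8 on P60_KO_2. Both P60 arrays lay far below all P4 arrays, and P60_KO_2 was under the floor, and the fit gave a log2 change of -3.71 ± 0.30 (SE, limma, Benjamini-Hochberg adjusted p = 2.97e-07). Aurkb, a kinase of chromosome segregation, read 1369, 1366 and 1025 at P4 and 159 and 78.9 on P60_KO_1 and P60_KO_2, a fall of 3.47 ± 0.34 (SE) on the log2 scale with no overlap between the ages (adjusted p = 3.31e-06). In WT nerve Cdk1 changed by -3.47 and Aurkb by -3.47. Each was under the floor on 2 of the P60 WT arrays, so these WT changes are lower limits of their size.

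Further members ended at the floor on both P60 null arrays. Cks2, a small subunit that binds cyclin-dependent kinases, read 667, 618 and 505 at P4 and was at least 10.8-fold lower at P60 (limma, adjusted p = 4.22e-05). Prc1, which bundles microtubules of the central spindle, read 585, 628 and 479 at P4 and was at least 10.2-fold lower at P60 (adjusted p = 1.95e-05). Cdc25c, the phosphatase that activates Cdk1, also ended at the floor, and was at least 4.88-fold lower. Mcm2, a subunit of the replicative helicase, read 239, 234 and 231 at P4 and 101 and 74.5 on P60_KO_1 and P60_KO_2. That is a log2 change of -1.44 ± 0.16 (SE, limma, Benjamini-Hochberg adjusted p = 1.25e-05), and the P4 arrays were so close together that the groups were well apart. Mki67, the common marker of cycling cells, and Pcna, the sliding clamp of DNA polymerase, were singled out after their values were seen. Mki67 read 1602, 1691 and 1588 at P4 and 427 and 317 at P60 in null nerve, so that both P60 null arrays kept a reading of over 300 index units, against 75.3, 49.6 and 78.8 on the P60 WT arrays. Its change was -2.14 in null and -3.97 in WT nerve. Pcna read 2086, 2091 and 1977 at P4 and 904 and 476 on the P60 null arrays, a change of -1.65 in null nerve (adjusted p = 0.000221), beside -0.30 in WT nerve (adjusted p = 0.435).

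The promoters shown are those of genes on the list that fell in null nerve, so their common direction is how they were chosen. RefSeq start sites of the GRCm38.p6 assembly were available for 28 of the 34 genes that fell, with 30 promoters, and the 250 bases before each start were searched on both strands for CCAAT (the CCAAT box) and for TTTGAA (the core of the cell cycle homology region). CCAAT was present in 26 of the 30 promoters (86.7%), against 33.8% of all 32851 promoters in the table, and TTTGAA in 10 (33.3%), against 16% of all. Both are short motifs, promoters of alternative starts of 1 gene can overlap, and a match is a description of the letters only. Genes on the list that did not fall were not counted apart, so these shares do not tell falling genes from cell cycle genes in general. The windows of Cdk1 (chr10:69352913-69353162, minus strand) and Mcm2 (chr6:88898781-88899030, minus strand) are printed 5′ to 3′ up to the base before the start, with the motifs in capitals. All CCAAT boxes shown lie on the strand opposite to the one printed and so read ATTGG.
Cdk1: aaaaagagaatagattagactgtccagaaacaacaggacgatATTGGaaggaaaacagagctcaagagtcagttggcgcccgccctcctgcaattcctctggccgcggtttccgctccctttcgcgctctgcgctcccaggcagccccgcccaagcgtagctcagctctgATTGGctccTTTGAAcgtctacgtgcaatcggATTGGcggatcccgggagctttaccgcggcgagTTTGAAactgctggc
Mcm2: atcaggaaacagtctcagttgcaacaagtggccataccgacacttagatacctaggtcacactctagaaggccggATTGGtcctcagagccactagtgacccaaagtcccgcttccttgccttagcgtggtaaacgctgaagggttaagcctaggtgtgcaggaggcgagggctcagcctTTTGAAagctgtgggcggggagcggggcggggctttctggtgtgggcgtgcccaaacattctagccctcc
In the Cdk1 window the CCAAT boxes begin at -208, -80 and -48 and TTTGAA at -71 and -15, counted from the start site, and in the Mcm2 window they begin at -175 and -70.

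Most measured enzymes of cholesterol synthesis fell. Of 24 genes on the list 16 were measured, and 11 (68.8%) fell and 0 rose in null nerve, with a median change of -0.93. All 16 null estimates were below 0. In WT nerve 4 fell and 1 rose, with a median of -0.38. The null count was 11 without P60_KO_1, 8 without P60_KO_2 and 10 under the scan day block, and the list's median was -0.84 on P60_KO_1 and -1.0 on P60_KO_2. Idi1, the isomerase that makes the activated isoprene unit, read 1886, 2399 and 1996 on the P4 null arrays, 375 on P60_KO_1 and 372 on P60_KO_2. The P60 arrays were almost identical to each other and far below all P4 arrays, and gave a log2 change of -2.48 ± 0.20 (SE, limma, Benjamini-Hochberg adjusted p = 2.97e-07). Hmgcs1, the synthase that supplies the pathway with HMG-CoA, read 2159, 3078 and 2319 at P4 and 652 and 544 at P60, a change of -2.06 ± 0.28 (SE, adjusted p = 7.77e-05). Sqle, the squalene epoxidase, read 929, 1264 and 1163 at P4 and 385 and 385 at P60, a change of -1.53 ± 0.21 (SE, adjusted p = 8.99e-05).

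Fdps, which makes farnesyl diphosphate, showed how far the P60 arrays could part. It read 1257, 1565 and 931 at P4, 226 on P60_KO_1 and 28.3, under the floor, on P60_KO_2. The change was -2.44 on P60_KO_1 and -4.48 on P60_KO_2, and the fit over both gave -3.46 ± 0.55 (SE, limma, adjusted p = 0.000253). A second Fdps probe set read 71.6 and 70.5 on the same arrays and changed by -2.74 (adjusted p = 0.000193), and another, at -0.28, did not pass. Nsdhl, a dehydrogenase late in the pathway, changed by -2.55 ± 0.29 (SE, adjusted p = 1.26e-05), and its 2 other probe sets fell too. The null and WT arrays stood apart in this pathway already at P4. Idi1 read 3891, 3553 and 3740.5 on the P4 WT arrays and 2382, 2459.9 and 2574 on the P60 WT arrays. The summed index of the 16 genes ran from 11320 to 14550 on the P4 null arrays, was 4892 on P60_KO_1 and 4412 on P60_KO_2. On the WT arrays it ran from 20110 to 21450 at P4 and from 15540 to 17510 at P60.

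Promoters of 9 of the 11 sterol genes that fell were in the RefSeq table, 1 each, and are described because sterol genes are known to share a factor, SREBP, that acts together with the CCAAT-binding factor NF-Y. CCAAT was present in 9 of 9 windows (100%), against 33.8% of all promoters. TCACNCCAC (the sterol regulatory element) was present in 1 (11.1%, that of Hmgcs1), against 1.05% of all, a share that rests on this 1 promoter. The list was drawn up by pathway and its genes that did not fall were not counted apart. These shares therefore describe sterol genes and do not bear on why they fell. The windows of Idi1 (chr13:8885356-8885605, plus strand) and Nsdhl (chrX:72918271-72918520, plus strand) follow, with CCAAT boxes in capitals, again as ATTGG.
Idi1: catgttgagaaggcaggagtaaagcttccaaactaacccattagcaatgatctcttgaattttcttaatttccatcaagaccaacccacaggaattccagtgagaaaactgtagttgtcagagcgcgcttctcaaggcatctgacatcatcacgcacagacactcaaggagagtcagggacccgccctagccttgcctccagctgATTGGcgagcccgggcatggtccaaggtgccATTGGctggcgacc
Nsdhl: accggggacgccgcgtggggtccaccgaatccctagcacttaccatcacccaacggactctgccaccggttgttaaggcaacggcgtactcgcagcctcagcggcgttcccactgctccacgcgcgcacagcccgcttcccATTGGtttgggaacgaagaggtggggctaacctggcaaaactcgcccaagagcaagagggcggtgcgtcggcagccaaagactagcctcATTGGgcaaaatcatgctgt
The boxes begin at -45 and -14 in Idi1 and at -109 and -20 in Nsdhl.

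**Figure D2:**
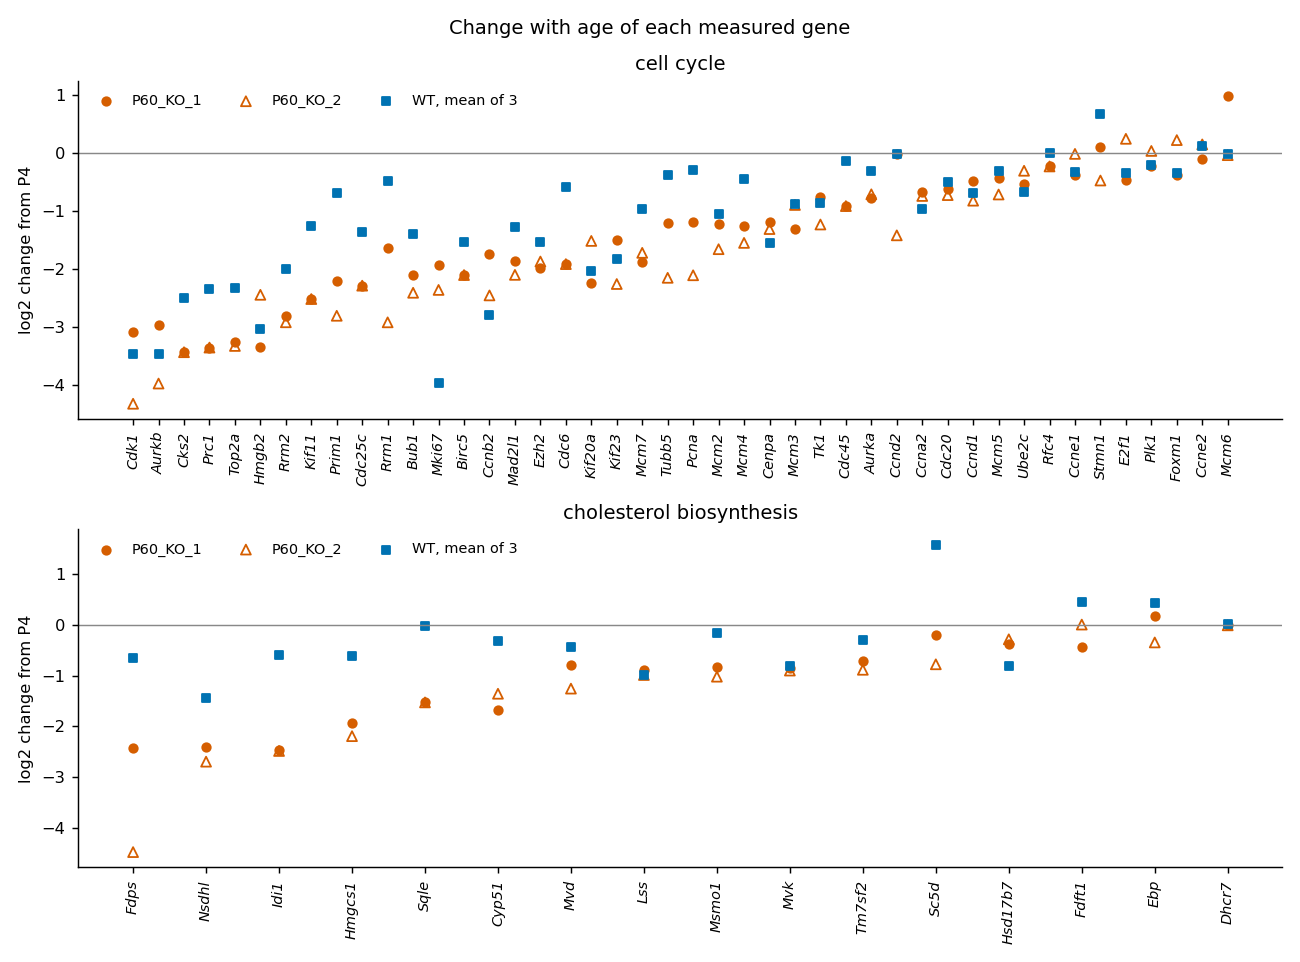
Log2 change from P4 of each measured gene of the cell cycle list (top) and of the cholesterol biosynthesis list (bottom), as orange circles for P60_KO_1, open orange triangles for P60_KO_2 and blue squares for the mean change in WT nerve. For Cdk1 the circle, triangle and square stand at -3.09, -4.33 and -3.47. For Idi1 the 2 null symbols stand at -2.47 and -2.49 and the square at -0.59.

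Most measured imprinted and fetal growth genes also fell. Of 24 on the list 17 were measured, and 11 (64.7%) fell and 1 rose, with a median change of -0.88, beside 8 falls, 0 rises and a median of -0.57 in WT nerve. The falls numbered 9 without P60_KO_1 and 8 without P60_KO_2. Mest, a paternally expressed hydrolase of growing tissue, read 1105, 1354 and 1086 on the P4 null arrays and 28 and 26 on P60_KO_1 and P60_KO_2. Both P60 arrays were under the floor, so that Mest was at least 21.5-fold lower (limma, adjusted p = 2.08e-06), the lowest change of all named genes. Igf2, the fetal growth factor, read 7518, 6739 and 6942 at P4, 913 on P60_KO_1 and 526 on P60_KO_2. It gave a log2 change of -3.35 ± 0.29 (SE, limma, Benjamini-Hochberg adjusted p = 6.92e-07), and it was among the strongest signals of the P4 nerve.

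The maternally expressed Cdkn1c, an inhibitor of cyclin-dependent kinases, fell as well. It read 5026, 4672 and 4389 at P4 and 861 and 1087 at P60, a change of -2.28 ± 0.23 (SE, limma, adjusted p = 4.7e-06). Peg3, a paternally expressed zinc finger gene, changed by -1.48 ± 0.17 (SE, adjusted p = 1.35e-05), and its 2 other probe sets fell too. Dlk1, a fetal membrane protein singled out after its values were seen, read 1369.9, 1425 and 1469 at P4 and 146 and 146 at P60, where both arrays were alike. For Cdkn1c, Peg3 and Dlk1 the WT changes were -2.12, -1.38 and -2.67. The 1 rise on the list was Dcn, a proteoglycan that the matrix list also holds, at 0.31, and this call was lost without P4_KO_1, P4_KO_2, P4_KO_3 or P60_KO_2.

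Matrix genes were split. Of 45 collagens and matrix genes 43 were measured, 17 (39.5%) fell and 4 (9.3%) rose, with a median of -0.17, against 10 falls, 8 rises and a median of -0.14 in WT nerve. Without P60_KO_2, 13 fell and 0 rose. Without P4_KO_1, 2 rose, and under the scan day block 5 fell and 1 rose. Col11a1, a collagen of young cartilage and nerve sheath fibrils, read 671, 732 and 674 at P4 and 80.4 and 74.3 on P60_KO_1 and P60_KO_2. The P60 arrays lay just above the floor, and the change was -3.16 ± 0.33 (SE, limma, adjusted p = 5.82e-06), beside -1.52 in WT nerve. Col14a1, a collagen on the surface of fibrils, read 1989, 2098 and 1742 at P4 and 524 and 223 at P60, a change of -2.50 ± 0.34 (SE, adjusted p = 6.86e-05). Fbn2, the fibrillin of fetal microfibrils, ended under the floor on both P60 arrays and was at least 4.81-fold lower (adjusted p = 2.7e-05). Probe sets of Col3a1, the main collagen beside Col1a1 in young connective tissue, disagreed in size: -4.19 and -1.10 both passed, while a further one, at -0.40, did not (adjusted p = 0.262). Among the 4 rises, Ogn, a small leucine-rich proteoglycan, read 1743, 1801 and 1646 at P4 and 3489 and 3468 at P60, but it was no longer called without either P60 null array.

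**Figure D3:**
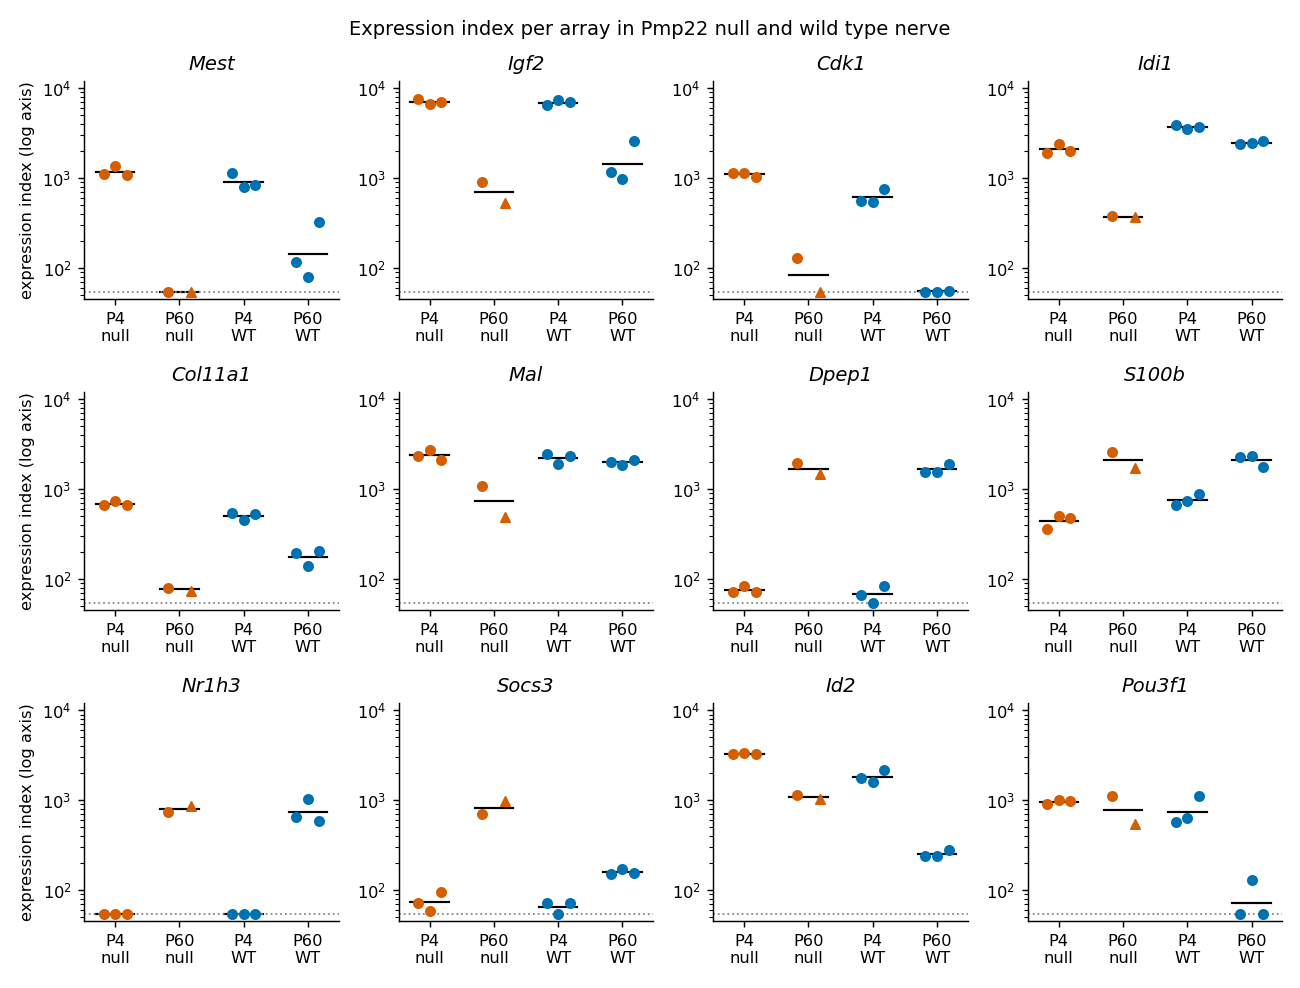
Expression index on a log axis for 12 genes, per array, with null arrays in orange, WT arrays in blue and P60_KO_2 as a triangle. Values under the floor of 54.7 (dotted line) are drawn at it, and the bar is the mean of the floored log2 values. Mest, Igf2, Cdk1 and Col11a1 fall and Dpep1, S100b and Nr1h3 rise in both genotypes, and Idi1 falls further on the null than on the WT arrays. Pou3f1 lies above its P4 null values on P60_KO_1, at 1121, and below them on P60_KO_2, at 548.

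Of the genes named by the rule, which needs a probe set with 1 gene symbol and arrays that do not overlap, the highest null change was that of Dpep1, a membrane dipeptidase, which read 72.1, 83.2 and 72 at P4, 1962 on P60_KO_1 and 1461 on P60_KO_2. The groups were far apart, and the fit gave a log2 change of 4.49 ± 0.34 (SE, limma, Benjamini-Hochberg adjusted p = 2.29e-07), a 22.4-fold rise. Aldh1a1, which makes retinoic acid, lay under the floor on all 3 P4 null arrays and read 1115 and 1157 at P60, at least 20.8-fold higher (adjusted p = 8.19e-09). Nr1h3, the oxysterol receptor LXR alpha, was likewise under the floor at P4 and read 749 and 867 at P60, at least 14.7-fold higher (adjusted p = 2.1e-09). All 3 rose in WT nerve as well, by 4.62, 5.08 and 3.75.

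Osmr, the receptor chain for oncostatin M, read 54.1, 74.2 and 78.2 at P4 and 805 and 1277 at P60, a change of 3.89 ± 0.31 (SE, limma, adjusted p = 2.97e-07). Socs3, the inhibitor that cytokine receptors of this class induce, read 72.8, 58.4 and 96 at P4 and 700.1 and 971 at P60, a change of 3.47 ± 0.24 (SE, adjusted p = 9.52e-08). Both P60 arrays stood well above all P4 arrays for each gene, and P60_KO_2 was the higher of the pair. A second Socs3 probe set rose by 0.65 (adjusted p = 0.0326), so the size of the Socs3 rise depends on the probe set. Rasd1, a small GTPase induced by glucocorticoids, was under the floor at P4 and at least 14.1-fold higher at P60, at 1001 and 591. Gbp2b, an interferon-induced GTPase, was also under the floor at P4 and at least 8.35-fold higher, at 511 and 408. Thy1, a surface glycoprotein of T cells, neurons and fibroblasts, changed by 3.49 ± 0.50 (SE, adjusted p = 0.000103).

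The remaining large rises came with probe sets that disagree. Ace, the angiotensin-converting enzyme, rose by 3.48 at 1 probe set, by 0.50 at another, and changed by 0.19 at the last, which did not pass. Ppfibp2, a liprin, rose by 4.04 at 1 probe set and fell by 1.57 at another, and both calls passed (limma, adjusted p = 2.32e-08 and 0.00289). Pkp2, a desmosomal plaque protein, rose by 3.43 at 1 probe set, while the other, at 0.44, did not pass. Rab1a, a GTPase of transport between endoplasmic reticulum and Golgi, was at least 9-fold higher at 1 probe set and changed by -0.20 at the other, which did not pass. Of 818 genes with more than 1 tested probe set and at least 1 call in null nerve, 48 had probe sets called in opposite directions.

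Apart from the lists above, the largest falls included 6330403K07Rik, an uncharacterised gene, and Tmem45a, a membrane protein. 6330403K07Rik read 866, 936 and 849.7 at P4 and 58.6 and 48.1 at P60, a change of -3.96 ± 0.25 (SE, limma, adjusted p = 2.71e-08), and its other probe set changed by -3.36. Tmem45a read 1061, 1018 and 939 at P4, 113 on P60_KO_1 and 24.5 on P60_KO_2, where it was under the floor. The chaperonin subunit Cct3 ended under the floor at 1 probe set and was at least 11-fold lower, with its 2 other probe sets at -2.44 and -0.81, both called. Dach1, a transcriptional cofactor, was at least 14.3-fold lower at 1 probe set, while the other read 0.25 and did not pass.

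Of 17 myelin protein genes on the list 6 were measured, and 3 (50%) fell, 1 (16.7%) rose and 2 did not pass in null nerve, beside 18.1% and 11.2% of all genes, with a median of -0.24, beside 1 fall and a median of -0.13 in WT nerve. Mal, a proteolipid of myelin and raft membranes, read 2362, 2744 and 2102 at P4, 1095 on P60_KO_1 and 495 on P60_KO_2. Both P60 arrays lay below all P4 arrays, P60_KO_2 by more, and the fit gave a log2 change of -1.70 ± 0.27 (SE, limma, Benjamini-Hochberg adjusted p = 0.000241). Mbp, which compacts the cytoplasmic faces of myelin, had a dimmer probe set that did not pass, at -0.06 (limma, adjusted p = 0.865). Its brighter probe set read 4411, 4964 and 5089 at P4 and 3563 and 3619.9 at P60. The groups did not overlap, and the change of -0.42 ± 0.13 (SE, adjusted p = 0.0207) was lost without P4_KO_2, P4_KO_3, P60_KO_1 or P60_KO_2, with estimates from -0.43 to -0.41 without the last 2.

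Mag, the adhesion molecule of the inner myelin wrap, read 385, 485 and 433 at P4 and 273 and 139 at P60, a change of -1.15 ± 0.36 (SE, limma, adjusted p = 0.022). Without P60_KO_2 it was -0.66 (adjusted p = 0.349), and the call was also lost without P4_KO_2. A second Mag probe set, at 0.47, did not pass. Gjb1, the gap junction protein connexin 32, read 73.6, 85.1 and 52.9 at P4 and 158 and 93.5 at P60, a change of 0.79 ± 0.28 (adjusted p = 0.0424) that was lost without P60_KO_1 (0.42, adjusted p = 0.382), P4_KO_1 or P4_KO_3. The tetraspanin Cd9, at 0.27 ± 0.20, and Mobp, at -0.06 ± 0.13, did not pass. The counts of 3 falls became 1 without P4_KO_2, 1 without P60_KO_2 and 0 under the scan day block. Mal alone of the 6 was called with each array left out in turn, and its call was lost under the scan day block (-1.89, adjusted p = 0.0628).

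Several transcription factors of the Schwann cell stages did not pass the test in null nerve. Egr2, the master regulator of the myelin programme, read 3715, 4021 and 3865 at P4 and 3686 and 4570.3 at P60, a change of 0.09 ± 0.20 that did not pass (limma, adjusted p = 0.796). Pou3f1, the factor of the promyelinating stage that is normally shut off in mature Schwann cells, read 906, 1019.9 and 973 at P4, 1121 on P60_KO_1 and 548 on P60_KO_2. The null arrays of both ages overlapped, and the change of -0.30 ± 0.42 (SE, adjusted p = 0.643) did not pass, while WT nerve went from 575, 635 and 1116 at P4 to 21.8, 129.5 and 37.6 at P60. Sox2, a factor of immature Schwann cells, read 1256, 1384 and 1652 at P4 and 1681 and 2305 at P60 in null nerve and did not pass (adjusted p = 0.212). These 3 genes were singled out after their values were seen, and earlier results of the same arrays had shown the P60 difference of some of them from WT nerve.

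Of 20 measured regulators of myelination on the list of 25, 4 (20%) rose and 3 (15%) fell, with a median of 0.07. Without P60_KO_2, 1 rose, and without P60_KO_1 or without P4_KO_2, 2 rose. Id2, which binds and blocks differentiation factors of the helix-loop-helix class, read 3275, 3344 and 3284 at P4 and 1140.0 and 1031 at P60, and both P60 arrays were well below the P4 arrays. It gave a log2 change of -1.61 ± 0.16 (SE, limma, Benjamini-Hochberg adjusted p = 2.96e-06). Ndrg1, the Schwann cell gene mutated in a recessive human neuropathy, rose by 0.60 ± 0.14 (SE, adjusted p = 0.00423), and its second probe set, at 0.26, did not pass. Erbb3, the neuregulin receptor, fell by 1.05, and the call was lost without P60_KO_2 (-0.73, adjusted p = 0.127), and a second probe set, at -0.76, did not pass. Egr1, the early response gene of immature Schwann cells, rose by 0.78, with 169, 121 and 163 at P4 and 266 and 249 at P60, and was no longer called without P4_KO_2, P60_KO_1 or P60_KO_2.

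Markers of immature, non-myelinating and repair Schwann cells went in both directions, with 2 of 20 measured genes (10%) up, 4 (20%) down and a median of 0.08, near the shares among all genes. With any 1 null array left out, 1 rose. S100b read 365, 501 and 476 at P4, 2592 on P60_KO_1 and 1714 on P60_KO_2, and rose by 2.25 ± 0.30 (SE, limma, adjusted p = 6.37e-05). Mcam, a cell adhesion molecule, read 1539, 1725 and 1189 at P4 and 607 and 397 at P60 and fell by 1.58 (adjusted p = 0.000508). Ncam1, the neural cell adhesion molecule, changed by -1.94 at its called probe set of highest mean signal and by 0.13 at another that did not pass (adjusted p = 0.609). Ednrb, the endothelin B receptor, ended under the floor on both P60 arrays, at least 2.65-fold lower, and the call was lost without P60_KO_2 (adjusted p = 0.0558). Without P60_KO_2 the 4 falls became 2, and under the scan day block 1.

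Lipid genes outside the sterol pathway gave no common direction: of 25 genes of fatty acid and myelin lipid synthesis 19 were measured, 5 (26.3%) rose, 3 (15.8%) fell and the median was -0.04. Of all genes, 11.2% rose and 18.1% fell. Me1, the malic enzyme that supplies NADPH for lipid synthesis, read 212, 252 and 247 at P4 and 1188 and 1758 at P60, and rose by 2.61 ± 0.32 (SE, limma, adjusted p = 2.79e-05). Srebf1, whose product switches on fatty acid genes, read 351, 399 and 396 at P4, 1436 on P60_KO_1 and 929.9 on P60_KO_2. Its rise was 1.60 ± 0.19 (SE, adjusted p = 2.5e-05). Cers2, the ceramide synthase of very long chain sphingolipids, rose by 1.15 and Gpam, which starts glycerolipid synthesis, by 1.02. Scd1, the stearoyl-CoA desaturase, rose by 0.75, while Ugt8a, the enzyme of galactocerebroside synthesis, read 327, 628 and 254 at P4 and 155 and 84 at P60, a call that was lost without P60_KO_2 (-1.27, adjusted p = 0.0526). Scd1 and Ugt8a were singled out after their values were seen. The 3 falls became 0 without P60_KO_2, 1 without P4_KO_2 and 6 without P60_KO_1. Under the scan day block 3 genes rose and 0 fell, and after quantile normalization 7 rose and 1 fell.

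Immune genes rose in part. Of 26 measured macrophage genes 8 (30.8%) rose and 2 (7.69%) fell, beside 11.2% and 18.1% of all genes. The median was 0.32, beside 7 rises, 0 falls and a median of 0.58 in WT nerve. The 8 rises became 5 without P4_KO_1, P4_KO_2, P60_KO_1 or P60_KO_2 in turn, and 1 under the scan day block. The 2 falls became 0 without P4_KO_2, P4_KO_3 or P60_KO_2. Ccl9, a chemokine of myeloid cells, read 126, 119 and 100.4 at P4, 923 on P60_KO_1 and 450.0 on P60_KO_2, and rose by 2.49 ± 0.50 (SE, limma, adjusted p = 0.00146). Lyz2, the lysozyme of macrophages, read 63.5, 78.3 and 81.2 at P4 and 536 and 266 at P60, with the same order of the P60 arrays. Laptm5, a lysosomal membrane protein of blood cells, read 1101, 1036 and 879.7 at P4 and 2471 and 2214 at P60 and rose at both of its probe sets. The summed index of the macrophage list ran from 14200 to 14700 on the P4 null arrays and was 20120 on P60_KO_1, above them, and 12840 on P60_KO_2, below them, while the list's median change was 0.23 on the first and 0.41 on the second.

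Antigen presentation and interferon genes numbered 27 measured of 33, and 9 (33.3%) rose and 0 fell in null nerve, with a median of 0.38, while in WT nerve 21 rose and 0 fell with a median of 0.96. The null median was 0.53 on P60_KO_1 and 0.02 on P60_KO_2. Without P60_KO_1 the rises numbered 6, without P60_KO_2 9 and under the scan day block 2. H2-K1, a class I major histocompatibility gene, read 522, 616 and 505 at P4, 1652 on P60_KO_1 and 834 on P60_KO_2, and rose by 1.11 ± 0.23 (SE, limma, adjusted p = 0.00201). The P60 WT arrays read 2876, 3199 and 3674, above both. A second H2-K1 probe set, under the floor on all P4 arrays and on P60_KO_2, rose by 0.79 (limma, adjusted p = 0.0447). Another H2-K1 probe set, at -0.12, did not pass (adjusted p = 0.605). H2-Eb1, of class II, read 193, 172 and 183 at P4 and 573 and 368 at P60. Tapbp, which loads peptide on class I molecules, rose by 2.13 at 1 probe set, while 2 others, at 0.82 and -0.57, did not pass. Signals from H2 genes can mix close copies.

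Endothelial genes rose in part: 5 of 15 measured (33.3%) rose, beside 11.2% of all genes, and 0 fell. The median was 0.58, beside 10 rises and a median of 0.75 in WT nerve. Eng, a co-receptor of endothelium, read 369, 344 and 363 at P4 and 1025 and 999 at P60 and rose by 1.5 ± 0.32 (SE, limma, adjusted p = 0.00221). Emcn, endothelial mucin, read 293, 306 and 277 at P4 and 583 and 561 at P60 at its brightest probe set, with little spread at either age, and its 2 dimmer probe sets did not pass. Vwf, von Willebrand factor, read 178, 225 and 256 at P4, 1135 on P60_KO_1 and 447 on P60_KO_2, and this call was lost without P60_KO_1 (1.04, adjusted p = 0.0514). The 5 rises became 3 without P60_KO_1 and 1 under the scan day block.

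Markers of tissue around the nerve did not move alike on the P60 null arrays. The summed index of 34 muscle genes was 15440, 9384 and 11250 on the P4 null arrays, 8714 on P60_KO_1 and 13080 on P60_KO_2, against 30260 to 42850 on the P60 WT arrays. None of the muscle list rose and 1 gene fell in null nerve, whereas 9 rose in WT nerve. The adipocyte sum ran from 4204 to 5611 at P4 and was 9880 on P60_KO_1, 5845 on P60_KO_2 and 12280 to 18810 on the P60 WT arrays. Adipoq, the adipocyte hormone adiponectin, read 127, 83.3 and 35.1 at P4, 991 on P60_KO_1 and 268 on P60_KO_2, and its rise of 2.63 was lost without P60_KO_1 (1.69, limma, adjusted p = 0.0529). The sum over 19 perineurial and endoneurial fibroblast genes ran from 14130 to 15410 at P4 and was 19940 and 16830 on P60_KO_1 and P60_KO_2, beside 24360 to 35810 on the P60 WT arrays. Of these 19 genes 3 rose and 1 fell in null nerve, and the rises became 1 without P60_KO_1. The null calls of this fibroblast list were 15.8% up and 5.26% down, beside 11.2% and 18.1% of all genes. Mast cell genes (10 measured) gave 0 calls in null nerve by limma and 4 rises in WT nerve. The part of these tissues in the other changes was not tested.

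The remaining lists each held few calls. Rises made up 26.7% of the lymphocyte, 16.7% of the node, 14.3% of the smooth muscle, 9.09% of the erythroid and 12.5% of the neuron genes. Among all genes 11.2% rose. Falls made up 8.33% of the node, 14.3% of the smooth muscle, 4.55% of the erythroid and 6.25% of the neuron genes, beside 18.1% of all genes. Of 15 measured genes of T and B lymphocytes 4 rose, among them Thy1, Cd79a at 1.07 and Cd22 at 0.82. Without P60_KO_2, 2 rose, and Cd22 was then no longer called, nor without P4_KO_1 or P4_KO_2. Of 12 genes of the node and paranode 2 rose and 1 fell, and Kcnab2, a subunit of axonal potassium channels, rose by 1.24 ± 0.37 (SE, limma, adjusted p = 0.0176), but not without P60_KO_2 (adjusted p = 0.276). A second Kcnab2 probe set, at 0.11, did not pass (adjusted p = 0.834). With any 1 null array left out, 1 of the 2 node rises was called. Smooth muscle and pericyte genes gave 2 rises and 2 falls of 14, with Smtn, smoothelin, at -0.88. Erythroid and blood genes gave 2 rises and 1 fall of 22, with Tfrc, the transferrin receptor, at 0.82 at 1 probe set and 0.31, which did not pass, at another, and 0 calls in either direction without P60_KO_2. Of 16 neuron and axon genes 2 rose and 1 fell, Tubb3, the neuronal tubulin, by 2.04 at its brightest probe set, while a second, at 0.62, did not pass. The neuron rises became 0 without P4_KO_2, P4_KO_3 or P60_KO_2, and those of smooth muscle became 0 without P4_KO_2 or P60_KO_2 and 1 without P4_KO_1.

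Of 19 measured genes of endoplasmic reticulum stress 3 (15.8%) rose and 4 (21.1%) fell, near the shares of 11.2% and 18.1% among all genes. Pdia4, a protein disulfide isomerase, read 641, 1002 and 361 at P4, 80.7 on P60_KO_1 and 3.99, under the floor, on P60_KO_2, a change of -3.21 ± 0.47 (SE, limma, adjusted p = 0.00012). Pdia6, of the same family, read 814, 1180.4 and 600.2 at P4 and 102 and 98.6 at P60, and 1 of its 2 other probe sets, at -0.56, did not pass. Hspa5, the luminal chaperone BiP, and Ddit3, a stress-induced transcription factor, were singled out after their values were seen: Hspa5 fell by 0.85 (adjusted p = 0.00301) and Ddit3 rose by 1.2 (adjusted p = 0.0022). Atf4, the factor upstream of Ddit3, fell by 0.90 (adjusted p = 0.000411). Under the scan day block 2 of the 4 falls were still called.

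Among 28 measured chaperone, proteasome and lysosome genes 5 (17.9%) rose and 8 (28.6%) fell in null nerve, against 8 rises (28.6%) and 0 falls in WT nerve. The shares of all genes differ too, with 11.2% up and 18.1% down in null and 11.2% up and 4.52% down in WT nerve. Sqstm1, the autophagy receptor p62, read 502, 645 and 633 at P4 and 1924 and 2504 at P60, with the 2 P60 arrays clearly above, and rose by 1.90 ± 0.15 (SE, limma, adjusted p = 2.8e-07). Hspa1a, the inducible cytosolic Hsp70, rose by 1.85, while its constitutive relative Hspa8 read 2926, 3201 and 3282 at P4 and 2008 and 889.7 at P60 and fell by 1.23 (adjusted p = 0.000825). Hspd1, the mitochondrial chaperonin, fell by 1.07, while its second probe set, at -0.14, did not pass. The 8 falls became 2 without P60_KO_2 and 0 under the scan day block, and the 5 rises became 3 without P4_KO_2 or without P60_KO_1.

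Whether the null change differed from the WT change was tested in the same limma fit as the null change minus the WT change. Of 10994 probe sets, 845 (7.69%) passed, 134 (1.22%) with the null change higher and 711 (6.47%) with it lower. The median difference over all probe sets was -0.08 as deposited, 0.05 after scaling each array to a common median and 0.08 after quantile normalization, and these scalings called 232 higher against 520 lower and 221 against 411, so the excess of lower calls became smaller. The count depended on single arrays: 36 were called without P60_KO_2, 1861 without P60_KO_1, 133 without P4_KO_2, 255 without P4_KO_1, 208 without P60_WT_3, 260 without P4_WT_2 and 557 without P4_WT_3. Under the scan day block 12 were called, and with scan day as a random block 403. Counted by gene, 68 of 7703 (0.883%) had a higher and 546 (7.09%) a lower null change. A total of 30 probe sets, 11 with the null change higher and 19 lower, were called with each of the 11 null and WT arrays left out in turn, and the genes described next come from them.

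Several of these 30 probe sets, among them those of Syt4 and Ifit3 below, had whole groups of arrays under the floor. Such groups show no spread whichever array is left out, so keeping the call means less there. Id2 was the only one of the 30 also called under the scan day block (2.0, limma, adjusted p = 0.044). It fell from 1764, 1599.5 and 2178 to 239, 240.1 and 278 in WT nerve and, as given above, to 1140.0 and 1031 in null nerve, so that the null change was 1.26 ± 0.21 higher (SE, limma, adjusted p = 0.0074). Pou3f1 fell by 3.35 in WT nerve, did not pass in null nerve, and differed between them by 3.05 ± 0.57 (adjusted p = 0.0124). Sox4, a factor of immature cells, showed the same arrangement: it read 602, 500.4 and 543 at P4 and 571 and 391 at P60 in null nerve, and 573, 664 and 656 and 144, 155 and 156 in WT nerve. Its difference was 1.84 ± 0.37 (adjusted p = 0.0155).

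At the named Socs3 probe set, Socs3 rose in both genotypes and by 2.20 ± 0.33 more in null nerve (SE, limma, adjusted p = 0.00335), with P60 WT values of 150.2, 173 and 155. At the second probe set the difference was 0.61 and did not pass (adjusted p = 0.199), and its WT change of 0.05 did not pass either. Apobec1, an RNA-editing deaminase, read 137, 118 and 205 at P4 and 1241 and 1125 at P60 in null nerve and 401, 349 and 371 at P60 in WT nerve, a difference of 2.07 (adjusted p = 0.00334). Syt4, a synaptotagmin, was under the floor on all P4 arrays of both genotypes and on all P60 WT arrays, and read 180.4 and 290.4 on the P60 null arrays. The difference of 2.06 (adjusted p = 9.02e-05) is therefore a lower limit, and its p-value rests largely on arrays set to the floor. Sox4, Apobec1 and Syt4 were singled out after their values were seen, as were Ifit3, Tmem176a and Osbpl9 below.

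On the lower side, Idi1 differed by -1.89 ± 0.27 (SE, limma, adjusted p = 0.003) and 6330403K07Rik by -2.06 ± 0.34 (adjusted p = 0.00611). Ifit3, an interferon-induced gene, was under the floor on all P4 arrays of both genotypes. It rose to 380.2, 408 and 597 in WT nerve, and read 153 on P60_KO_1 and 54.1, under the floor, on P60_KO_2. The difference was -2.31 (adjusted p = 0.00781), and this p-value rests largely on arrays set to the floor. Tmem176a, a membrane protein of myeloid cells, read 509 and 135 on the P60 null arrays and 1170.0, 1504 and 1873 on the P60 WT arrays. Osbpl9, an oxysterol-binding protein relative, moved in opposite directions. It went from 80.1, 88.5 and 85.6 at P4 to under the floor in null nerve. In WT nerve it went from 46.9, 56.5 and 47 to 106, 112 and 92.7, where 46.9 and 47 also lie under the floor. Osbpl9 differed by -1.53 (adjusted p = 0.000117), a p-value that rests in part on arrays set to the floor.

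Other differences lost their call when single arrays were left out. Of the antigen presentation list, 10 of 27 genes (37%) had a lower null change, beside 7.09% of all genes. That count was 2 without P60_KO_2, 3 without P4_KO_2 or P60_WT_3, 4 without P4_WT_1, P4_WT_2, P4_WT_3 or P4_KO_1 and 6 without P60_WT_2. With median scaling it was 6 and with quantile scaling 5. Cd74, the class II invariant chain singled out after its values were seen, read 191, 172 and 175 at P4, 485 on P60_KO_1 and 146 on P60_KO_2, and 1106, 1176 and 2082 on the P60 WT arrays. Its difference of -2.68 (limma, adjusted p = 0.0205) was -1.81 without P60_KO_2 (adjusted p = 0.193) and was lost without P4_KO_2 or P60_WT_3 too. The sterol list gave 5 of 16 genes (31.2%) with a lower null change. That count was 1 without P60_KO_2 and 3 without P4_WT_2, P4_WT_3, P60_WT_1, P60_WT_3, P4_KO_1 or P4_KO_2. Sqle differed by -1.51 (adjusted p = 0.0132), and without P60_KO_2 by the same amount with an adjusted p of 0.0732. Mal differed by -1.54 (adjusted p = 0.0219) and by -0.96 without P60_KO_2 (adjusted p = 0.197), and lost the call without P4_KO_2, P4_WT_2 or P60_WT_3 as well. Of the cell cycle list 4 of 44 genes (9.09%) had a lower null change, near the 7.09% of all genes. A higher null change was found for 1 (2.27%), beside 0.883% of all genes. The 4 became 0 without P4_WT_2, P60_WT_3, P4_KO_1, P4_KO_2 or P60_KO_2 and 2 without P4_WT_1 or P60_WT_2.

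The lowest differences of all named genes also lost their call in this way. Gsn, the actin-severing protein gelsolin, read 583, 752 and 477 at P4, 1166 on P60_KO_1 and 169.8 on P60_KO_2, against 3004, 2556 and 3628 on the P60 WT arrays. The null arrays moved in opposite directions from P4, by 0.97 and -1.81, and the difference of -3.27 (limma, adjusted p = 0.0209) was -1.88 without P60_KO_2 (adjusted p = 0.165) and was lost without P4_KO_2, P4_WT_2 or P60_WT_3 too. Ackr3, a chemokine scavenger receptor, P4ha1, a prolyl hydroxylase of collagen, and Ppp1r7, a regulator of protein phosphatase 1, differed by -3.24, -3.20 and -3.15, and without P60_KO_2 by -2.75, -2.26 and -2.26, none of them called (adjusted p = 0.111, 0.0608 and 0.051). On the higher side, Zfp91, Wnk1 and Rfc1 differed by 2.63, 2.43 and 2.16, and without P60_KO_2 by 1.98, 1.96 and 1.92 with no call (adjusted p = 0.122, 0.108 and 0.0827). Other probe sets of these genes did not all show a difference: Zfp91 had one at 0.10, Rfc1 one at 0.07 and Wnk1 one at -0.66, none of which passed, while a further Wnk1 probe set, at 2.28, did. Pvalb, parvalbumin of fast muscle, differed by -3.36 (adjusted p = 0.037), with 1741, 2688 and 2185 on the P60 WT arrays and 31.7 and 374 on the P60 null arrays, beside the muscle sums given above. It was no longer called without any of 9 arrays, among them P60_KO_1 (-1.97). A second Pvalb probe set differed by -1.71 (adjusted p = 0.0341).

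The difference between P60_KO_1 and P60_KO_2 was itself described gene by gene. On P60_KO_2 the muscle gene Acta1, skeletal actin, read 1146 against 89.97 on P60_KO_1, a difference of 3.67 on the log2 scale, and the muscle genes Tnnc2, fast troponin C, and Actn3, an actinin of fast fibres, were higher by 2.15 and 2.10. A second Tnnc2 probe set went the other way, at -1.43, and a second Actn3 probe set was higher by 0.78. Acta1 also varied among the P4 null arrays, at 1982, 526 and 897. The Xist RNA, which coats the inactive X chromosome of female cells, read 524 on P60_KO_1 and 2228 on P60_KO_2, and between 226.6 and 1003 on the other 9 null and WT arrays. P60_KO_2 was thus the highest of these 11 arrays for Xist. The sex of the pooled mice is not given in the sources used here.

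Lower on P60_KO_2 were genes of many kinds. Eif3c, a subunit of a translation initiation factor, read 1339, 1799.5 and 1345 at P4, 397 on P60_KO_1 and 56.5 on P60_KO_2. Rab31, a GTPase of vesicle transport, read 2054, 2241 and 1504 at P4, 713 and 107. For these 2 genes P60_KO_1 lay between the P4 arrays and P60_KO_2. Tollip, an adaptor of Toll-like receptor signalling, and Dap, a protein linked to cell death, read 762 and 759 on P60_KO_1, near or within the P4 range, and 104 and 136 on P60_KO_2. The other Tollip probe set was higher on P60_KO_2, by 0.72, and the other Rab31 probe set differed by -0.46. By list, the median difference of P60_KO_2 from P60_KO_1 was -0.46 for fatty acid and myelin lipid synthesis, -0.40 for myelin proteins, -0.40 for macrophage genes and 0.26 for muscle genes, beside -0.03 for all measured genes. For the cell cycle and cholesterol lists it was -0.09 and -0.14. P60_KO_2 also had the most values at or below 0 of the 21 arrays and the lowest median index, 177.4 against 189.04 on P60_KO_1. The cause of the difference between the arrays was not tested.

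**Figure D4:**
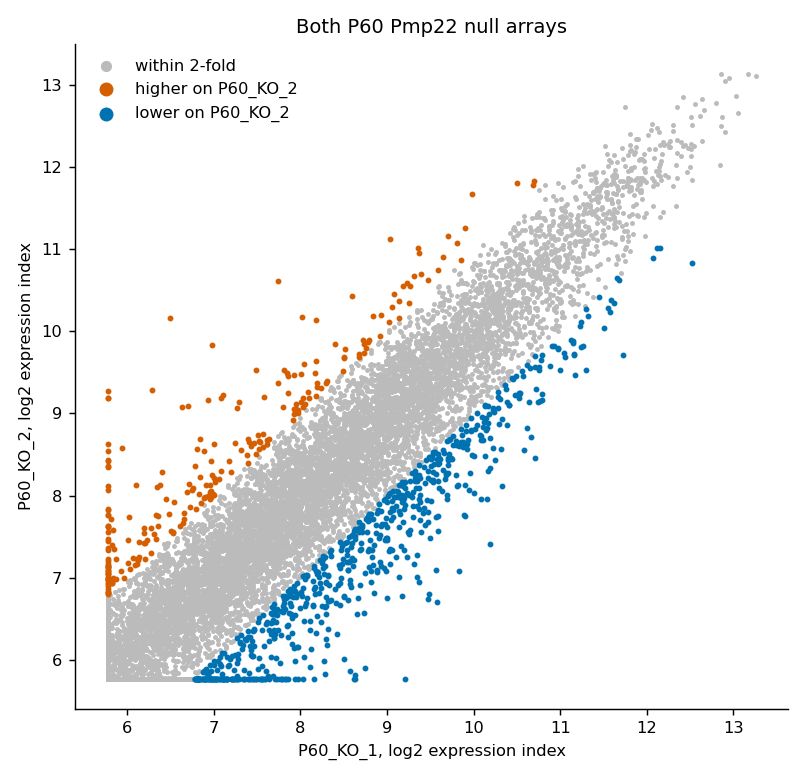
Log2 expression index of 10994 probe sets on P60_KO_1 (horizontal) and P60_KO_2 (vertical), with values under the floor drawn at it. Orange points (240) are more than 2-fold higher and blue points (680) more than 2-fold lower on P60_KO_2.

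**Figure D5:**
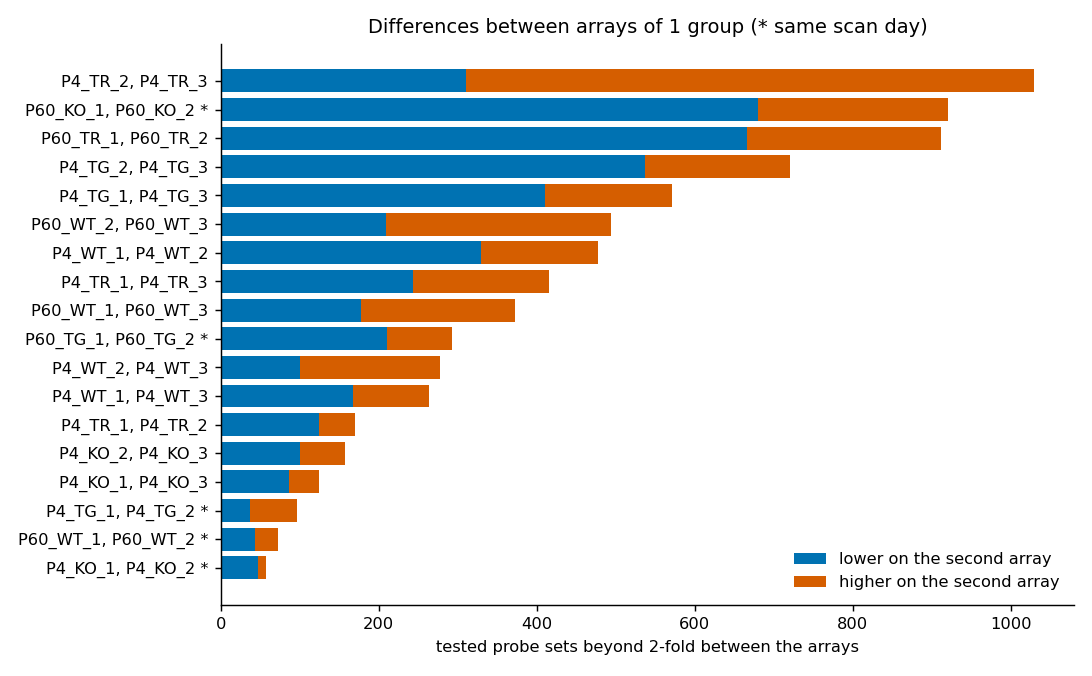
Number of tested probe sets that differed beyond 2-fold between each pair of arrays of 1 group, split into those lower (blue) and higher (orange) on the second array of the pair, with an asterisk for pairs scanned on the same day. The P60 null pair, at 920, is the highest of the same-day pairs, while P4_KO_1 and P4_KO_2 differed at 58 probe sets. Of all pairs, P4_TR_2 and P4_TR_3 of Trembler nerve, scanned on different days, differed most, at 1029.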

How the data were processed

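RNA of 21 pooled sciatic nerve samples, extracted with RNeasy kits and amplified by 2 rounds of in vitro transcription, was hybridised to Affymetrix MG_U74Av2 arrays, per the labels. The deposited values are probe set intensities that, per the labels, the authors made with dChip (smoothing-spline normalization and a model-based expression index fitted over 27 arrays, or 18 for 1 P60 WT array). The dChip version is not given in the sources used here. Arrays carry no read depth, and their number limits the precision.

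From these intensities 12422 probe sets outside the control class were kept. Values under 54.7, which is percentile 20 of the whole table, were set to that floor before log2 was taken. The 10994 probe sets that exceeded it on 2 or more arrays entered 1 limma fit over 8 groups of the 21 arrays (lmFit and eBayes with trend, 13 residual degrees of freedom) with Benjamini-Hochberg adjustment over all tested probe sets and a threshold of 0.05. Standard errors are those of the fit. Other percentiles of the floor, median and quantile scaling, other filters, array weights, scan day and replicate number as blocks, fewer groups and each array left out were tried as alternatives, and the fit was tested on simulated data. R 4.3.3, limma 3.58.1, Python 3.11.15, pandas 2.3.3 and matplotlib 3.10.9 were used.

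GEO's platform annotation gave 1 gene symbol for 10833 probe sets, several for 396 and none for 1193. Of the symbols, 10817 probe sets matched RefSeq and 0 changed. A gene on a list counts by its probe set of highest mean log2 value. The 22 lists hold 568 genes, 467 of them on the array. Genes named are the 12 highest and 12 lowest null changes among called probe sets whose P4 and P60 arrays do not overlap, the myelin protein list, up to 4 genes of lowest adjusted p of each other list, the 8 highest and 8 lowest differences from WT and the 8 highest and 8 lowest differences between the P60 null arrays. The text names fewer, and genes added beyond the rule are said to be. The arrays, lists and genes were chosen with earlier results of these data known. Same-numbered P4 and P60 null samples were different pools, so replicate numbers were not taken as pairs. No column of values in the table was left unused.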

Additional observations from a re-analysis of the deposited data

Results flagged for a closer look

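The change from P4 to P60 differed between null and WT nerve at 845 probe sets by the test of the difference in the limma fit. On the log2 scale, as the null change minus the WT change, the named genes with such a difference on the higher side were Pou3f1 at 3.05, Zfp91 at 2.63, Wnk1 at 2.43, Socs3 at 2.20, Rfc1 at 2.16, Apobec1 at 2.07, Syt4 at 2.06, Sox4 at 1.84 and Id2 at 1.26. On the lower side they were Pvalb at -3.36, Gsn at -3.27, Ackr3 at -3.24, P4ha1 at -3.20, Ppp1r7 at -3.15, Cd74 at -2.68, Tmem176a at -2.53, Ifit3 at -2.31, 6330403K07Rik at -2.06, Idi1 at -1.89, Mal at -1.54, Osbpl9 at -1.53 and Sqle at -1.51. Of these 22 genes, 12 were called without P60_KO_2, 21 without P60_KO_1 and 11 with each of the null and WT arrays left out in turn, and 1, Id2, under the scan day block. No null or WT group held 4 arrays, so single arrays that stand apart were not tested for, and the distance between P60_KO_1 and P60_KO_2 is given as a description.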

How the results depend on the processing

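The null count of 3179 probe sets was 1212 with scan day as a fixed block and 1968 with null arrays alone, and from 1274 (without P60_KO_2) to 3247 (without P60_KO_1) with 1 array left out. The count of differences from WT, 845, was 12 and 403 with scan day as a fixed and a random block, 488 with null and WT arrays alone, and from 36 (without P60_KO_2) to 1861 (without P60_KO_1) with 1 array left out. The cause was not tested, beyond the smaller number of arrays in the last settings. Replicate number as a block gave 3309 and 903 calls, and the same-numbered null arrays, of different pools, deviated with correlations of -0.083 and -0.279, so the numbers were not taken to pair samples.

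Values that turned sign belonged to changes that had not passed. With the scan day block Pmp22 was -0.00777 at its brighter and -0.60 at its dimmer probe set, Cd9 -0.31, Mobp 0.0952 and Pou3f1 0.0534. With scan day as a random block the dimmer Pmp22 probe set was -0.13 and Mobp 0.0169, and Mobp was 0.0155 and 0.0529 after median and quantile scaling. With 1 array left out, the brighter Pmp22 probe set ran from -0.0953 to 0.148, Pou3f1 from -0.815 to 0.216 and Egr2 from -0.0684 to 0.242. Of 96 called null changes followed through the alternatives, 84 were called without P60_KO_1, 80 without P60_KO_2, 75 with each array left out and 52 under the scan day block. Probe sets under the floor have no measured level, which limits every fold from or to it, and 2 arrays at P60 limit the rest.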
